A study of Mus musculus with 12 samples.

Results

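The mitochondrial ribosomal proteins are the genes whose symbol is Mrpl or Mrps followed by a number and at most 1 letter. Of the 47632 genes in each deposited table, 77 matched, 48 of the large subunit (Mrpl) and 29 of the small subunit (Mrps), and all 77 are annotated as protein-coding. Most of these mRNAs were lower in Tfeb ΔIEC than in control animals on Days 4 and 11, and those with short coding sequences were lower than those with long ones. All protein-coding genes had the same trend with coding length. Cytosolic ribosomal proteins and complex I genes were lower by more than the members. The size of the members' difference depends on the scaling. In the FPKM as deposited, the median log2 fold change of Day 4 was -1.02, against 0.06 over all genes. When each group was divided by its sum, it was -0.21, against 0.66. The large and the small subunit had closely similar medians.

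The mitochondrial ribosome, or mitoribosome, translates the few mRNAs encoded by mitochondrial DNA, all of which specify subunits of the oxidative phosphorylation complexes. Its proteins are encoded in the nucleus, made in the cytosol and imported, and its RNAs come from mitochondrial DNA. Part of the proteins have bacterial counterparts, most of which carry low numbers, while most of those with higher numbers were added during the evolution of mitochondria. Colonocytes, the absorptive cells of the colon, rely on mitochondrial oxidation of butyrate. TFEB is a transcription factor of lysosomal and autophagy genes.

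Epithelial cells were isolated with EDTA from the colons of C57/BL6 mice. Collection was on Day 0, before treatment, and on Day 4 of a course with dextran sodium sulfate (DSS), an agent in the drinking water that injures the colonic epithelium. Day 11 came after a recovery period on water without DSS. Tfeb ΔIEC animals carry a Villin-cre transgene, active in the epithelium of the whole intestine, that removes the floxed part of Tfeb. Controls were Tfeb flox/flox littermates, so that all animals had the floxed allele. Each of the 6 groups had 2 animals, 12 in all, and the labels call the genotypes KO and WT. The animals were 10 and 12 weeks old on Day 0, 12 weeks on Day 4 and 10 weeks on Day 11, in both genotypes. The labels give 2.5% DSS for every group, Day 0 included, while the authors' methods give a lower concentration.

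Full-length cDNA was sequenced as paired-end reads, and the authors' Cuffdiff run gave 1 FPKM value per gene, genotype and day, made from both animals. FPKM is the number of sequenced fragments scaled for transcript length and for the size of the library, so genes can be compared within a table. These pooled values carry no error, and no test over animals could be made from them: every difference below lacks a replicate check, and the read depth behind the values is unknown. Differences between genotypes are given as the log2 fold change of FPKM + 1, Tfeb ΔIEC against Tfeb flox/flox, which understates the change of low genes. Members with at least 1 FPKM in either genotype of a day were used, and at least 2-fold on this scale counts as past 2-fold. In cells isolated in bulk, fewer cells of a type and less RNA per cell cannot be told apart.

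Values of all genes bear on how the members can be read. Tfeb itself had 0.901, 1.08 and 1.18 FPKM in the controls on Days 0, 4 and 11, and 0.185, 0 and 0 in Tfeb ΔIEC. Day 4 and Day 11 were nearly the same in both genotypes, although the labels give different animals. Between these days the median absolute log2 difference of a gene at 1 FPKM or more on both was 0.07 in the controls and 0.08 in Tfeb ΔIEC, against 0.78 and 0.49 between Day 0 and Day 4. For the members it was 0.09 and 0.15, against 0.68 and 0.47, so Day 11 is not treated as a repeat of Day 4. The FPKM of all genes summed to 975316 and 973878 in Tfeb flox/flox and Tfeb ΔIEC on Day 0, but to 1464720 and 820344 on Day 4. All 5 colonocyte markers were present in every group, with Car1 between 22335 and 28996 FPKM, but they differed between genotypes. Their median difference on the log2 scale was 1.42 on Day 4, with Slc26a3 at 33.3 and 271 FPKM in the controls and Tfeb ΔIEC (2.99), Slc37a2 at 11.3 and 106 (3.11), Aqp8 at 1.42, Car1 at 0.11 and Car4 at -0.66. It was -0.38 on Day 0. Of 6 epithelial markers, 3 were at least 2-fold higher on Day 4, which were Krt20 (3.19), Vil1 (2.83) and Cdh1 (2.70), and the median of the 6 was 1.64, in the direction opposite to that of most members. On Day 0 it was 0.14. Their sum was 2744 and 3001 FPKM in the controls and Tfeb ΔIEC on Day 0, and 3730 and 5204 on Day 4, most of it Epcam and Krt8. Of 12 entries for 11 immune markers (Itgam has 2 identifiers), 4 to 9 were listed at 0 and the sum of all 12 was between 3.06 and 9.75 FPKM. Of 8 stromal markers, 2 to 6 were listed at 0, with a sum between 2.37 and 5.87 FPKM. The immune sum was lower in Tfeb ΔIEC on Day 0 and higher on Days 4 and 11, and the stromal sum was lower on Days 4 and 11. Of 7 markers of small-intestinal enterocytes, 2 or 3 were listed at 0 in each group, Lct and Treh in all of them. Their sum was 1906 and 912 FPKM in the controls and Tfeb ΔIEC on Day 0, 880 and 816 on Day 4 and 844 and 837 on Day 11, nearly all of it Fabp2 (1882 and 891 on Day 0). Fabp6, a bile acid carrier of the ileum, had 24.0 and 2.65 FPKM on Day 4, and the glucose transporter Slc5a1 had 2.76 and 13.8. The part of these sums and of the epithelial and colonocyte markers in the differences of the members was not tested.

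In the untreated controls the members covered a wide range of levels. Their median in Tfeb flox/flox on Day 0 was 13.0 FPKM, and the median member stood at percentile 83.7 of the genes above 0. The 5 members with the highest mean over the 6 groups were Mrpl52, Mrps24, Mrpl17, Mrps21 and Mrpl34. The 5 highest members of Tfeb flox/flox on Day 0 made up 29.7% of the summed FPKM of all members, and 42.8% on Day 4. Large-subunit mRNAs summed to 1.82 times those of the small subunit in Tfeb flox/flox on Day 0 and 2.04 times in Tfeb ΔIEC. On Day 4 these ratios were 1.90 and 1.76, and on Day 11 they were 2.00 and 1.78.

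How the members differed between days depends on the scaling of the tables, which were made separately. As deposited, the median member was 13.0, 21.2 and 21.2 FPKM on Days 0, 4 and 11 in the controls, and 9.95, 8.37 and 8.39 FPKM in Tfeb ΔIEC. With every group scaled to the sum of the Day 0 controls, an alternative added after seeing the data, these medians were 13.0, 14.1 and 14.02 FPKM, and 9.97, 9.95 and 9.89 FPKM, so the median was nearly level between days. Between Day 0 and Day 4, as deposited, 18 of 76 members were at least 2-fold higher and 9 at least 2-fold lower in Tfeb flox/flox, where 17.5% and 25.7% of all genes were. In Tfeb ΔIEC 3 of 75 were higher and 8 lower, where 9.26% and 15.6% of all genes were. Scaled to the same sum, 5 members were higher and 14 lower in Tfeb flox/flox, where 9.25% and 35.5% of all genes were, and 5 higher and 5 lower in Tfeb ΔIEC, where 12.1% and 12.6% were. In the plot of levels in both genotypes, points move away from the line of equal values on Days 4 and 11 mainly at the high end of the Tfeb flox/flox axis.

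**Figure D1:**
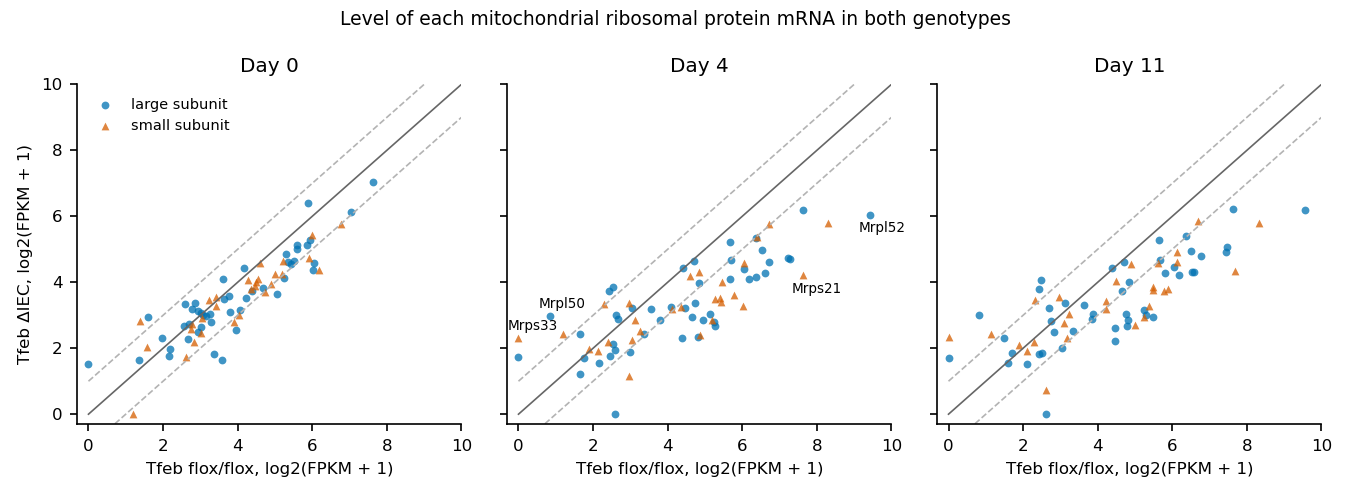
Level of each member with at least 1 FPKM in either genotype, in Tfeb flox/flox (x axis) and Tfeb ΔIEC (y axis), both as log2(FPKM + 1) of the pooled value of 2 animals, for Days 0, 4 and 11. Circles are the large and triangles the small subunit. The solid line marks equal values and the dashed lines 2-fold. On Day 4, 38 of 74 members lie on or below the lower dashed line and 7 on or above the upper one.

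On Day 0 the difference between genotypes was small. Of 76 members with at least 1 FPKM, 57 were lower in Tfeb ΔIEC, and the median log2 fold change was -0.50, against 0.06 over all 9993 genes used. At least 2-fold lower were 14 members (18.4%), where 16.1% of all genes were, and at least 2-fold higher were 3 members, where 13.5% of all genes were. The share lower is thus near that of all genes, while the share higher is below it. The counts of members moved with the pseudocount, and at 5 FPKM they were 6 lower and 0 higher. The lowest values belonged to Mrpl21, Mrps21 and Mrpl33. Mrpl21 had 11.1 FPKM in the controls and 2.14 in Tfeb ΔIEC, a log2 fold change of -1.94. Mrps21 went from 71.1 to 19.7 FPKM, which is -1.80. Mrpl33, a small protein of the large subunit with a bacterial counterpart, went from 64.4 to 19.7 FPKM, which is -1.66.

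On Day 4 the difference was larger. Of 74 members used, 60 were lower in Tfeb ΔIEC, and the median log2 fold change was -1.02, against 0.06 over all 9371 genes. At least 2-fold lower were 38 members (51.4%), where 26.1% of all genes were, and at least 2-fold higher were 7 members (9.46%), where 25.6% of all genes were. Day 11 gave nearly the same values: 36 of 74 members were at least 2-fold lower, where 25.7% of all genes were, and 7 at least 2-fold higher, where 26.1% were, with a median of -0.97. At least 2-fold lower on both Day 4 and Day 11 were 35 of the 74 members used on both (47.3%), where 25.1% of all genes were, and the same 7 were higher on both days, where 24.7% of all genes were. With Day 11 so close to Day 4 over all genes, the second day adds no independent count. Mrpl12, Mrpl18, Mrps5 and Mrps23 were past 2-fold lower on 1 of these days only. Lower on all 3 days were 12 of 74 members (16.2%), where 9.21% of all genes were, among them Mrps21, Mrps24, Mrpl33, Mrpl53 and Mrpl54.

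The size of this difference depends on how the groups are scaled. When each group was divided by the sum of its FPKM, the median member was at -0.21 on Day 4 and -0.19 on Day 11, and the median of all genes moved up by 0.60 on both days. Members past 2-fold were then 23 lower and 10 higher on each of these days, where 15.2% of all genes were lower and 40.5% higher on Day 4, and 14.9% and 41% on Day 11. The share of lower among the members past 2-fold went from 84.4% to 69.7% on Day 4, and 48 of 74 members were below 0. Relative to all genes, the members were lower under both scalings.

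Mrps21 and Mrpl52 had the largest lower changes on Day 4. Mrps21, a small-subunit protein related to bacterial S21, lies on chromosome 3 (95862634 to 95871519, minus strand, mm10). It had 71.1, 196 and 206 FPKM in Tfeb flox/flox on Days 0, 4 and 11, and 19.7, 17.7 and 19.2 in Tfeb ΔIEC. Its level in Tfeb ΔIEC was thus nearly level across days while that of the controls went up in the deposited values, and on Day 4 the controls were 11.1-fold higher. Mrpl52, a large-subunit protein without a bacterial counterpart, lies on chromosome 14 (54426909 to 54429756, plus strand). Its FPKM was 199, 683 and 759 in Tfeb flox/flox and 132, 64.8 and 72.5 in Tfeb ΔIEC. It was the highest member in the controls on all days and fell from first place in Tfeb ΔIEC on Days 4 and 11, where Mrpl17 was highest with 72.2 and 74.1 FPKM. The log2 fold changes of Day 4 were -3.40 for Mrps21 and -3.38 for Mrpl52.

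The next members in order were Mrps18c, Mrpl54, Mrpl22 and Mrpl53. Mrpl54 went from 155 FPKM in Tfeb flox/flox to 25.1 in Tfeb ΔIEC on Day 4, a 6.18-fold difference, and from 65.3 to 22.8 on Day 0. Mrpl22, which corresponds to a bacterial protein that lines the exit tunnel, was low in all groups: 3.44 and 2.39 FPKM on Day 0, and 4.97 and 5.12 in Tfeb flox/flox on Days 4 and 11, while Tfeb ΔIEC was listed at 0 on both days. Of its 50-base sequences 77.6% occur in no other gene, and the processed pseudogene Gm6997, whose values were not used here, holds the others. Mrpl53 went from 37.3 to 5.44 FPKM on Day 4, but only 18.0% of the 50-base sequences of its annotated transcripts occur in no other gene, since the annotated gene Gm42688 holds all others. Of the other abundant members, Mrps24 had 314 FPKM in the controls and 55.03 in Tfeb ΔIEC on Day 4, Mrpl34 148 and 25.7, and Mrpl17 199 and 72.2.

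The paralogs of Mrps18 differed among themselves. Mrps18a, Mrps18b and Mrps18c descend from 1 bacterial-type protein, and Mrps18a sits in the large subunit in solved structures. On Day 4 the log2 fold change was -0.54 for Mrps18a (27.8 and 18.8 FPKM), -0.40 for Mrps18b (23.3 and 17.4 FPKM) and -2.74 for Mrps18c (63.6 and 8.66 FPKM). On Day 0 they were at -0.59, -1.11 and -0.76, so the spread among the paralogs was narrower. Of the 50-base sequences of Mrps18a, Mrps18b and Mrps18c, 100%, 69.8% and 77.1% occur in no other gene.

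At least 2-fold higher in Tfeb ΔIEC on Days 4 and 11 were 7 members, namely Mrps33, Mrpl50, Mrpl1, Mrpl3, Mrpl9, Mrps27 and Mrps9. Their number depends on the settings. It was 1 on Day 4 and 2 on Day 11 with a pseudocount of 5 FPKM, and 2 and 3 at 10 FPKM or more. With each group divided by its sum it was 10 on each day. Mrps33 was at -0.77 on Day 4 once its near-identical copy was joined to it. Copies were also joined for the 19 members with a pseudogene as defined below, Mrpl22 not among them. Then 6 of 76 members were higher on each of these days (7.89%), and 40 and 38 of 76 were lower. The members used then include Mrpl23 and Mrps36, which enter through the values of their pseudogenes, and of the 74 used before, 38 and 36 were lower. On Day 0, 2 of 77 were higher and 16 lower with copies joined. For each of the 7 members named above, the value in Tfeb flox/flox was lower on Day 4 than on Day 0, in tables scaled separately. They were chosen by their Day 4 difference, which favours low control values on that day. Of all genes, 25.7% were at least 2-fold lower in Tfeb flox/flox on Day 4 than on Day 0. Mrpl50, a mitochondria-specific large-subunit protein, had 4.99, 0.791 and 0.756 FPKM in Tfeb flox/flox on Days 0, 4 and 11, and 9.09, 6.85 and 7.01 in Tfeb ΔIEC. Mrpl3, which has a bacterial counterpart near the catalytic centre, had 5.83, 4.34 and 4.36 FPKM in the controls and 8.20, 12.4 and 13.0 in Tfeb ΔIEC. Mrpl9 had 11.3, 4.79 and 4.63 against 16.1, 13.5 and 15.7 FPKM. The log2 fold changes of Day 4 were 2.13, 1.33 and 1.32 for Mrpl50, Mrpl3 and Mrpl9. Mrps27, a pentatricopeptide repeat protein that binds RNA, had 1.27 FPKM in the controls and 4.45 in Tfeb ΔIEC on Day 4 (log2 fold change 1.26). Mrps9 had 3.94 and 9.14 FPKM (1.04). Mrpl1, with 1.55 and 2.16 FPKM on Day 0, was listed at 0 in Tfeb flox/flox on Days 4 and 11 and had 2.31 and 2.26 FPKM in Tfeb ΔIEC. Apart from Mrps33 and Mrpl50, these have long coding sequences, from 799.5 nt (Mrpl9) to 1245 nt (Mrps27). The highest value among the 7 on Day 4 was 13.5 FPKM, that of Mrpl9 in Tfeb ΔIEC.

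**Figure D2:**
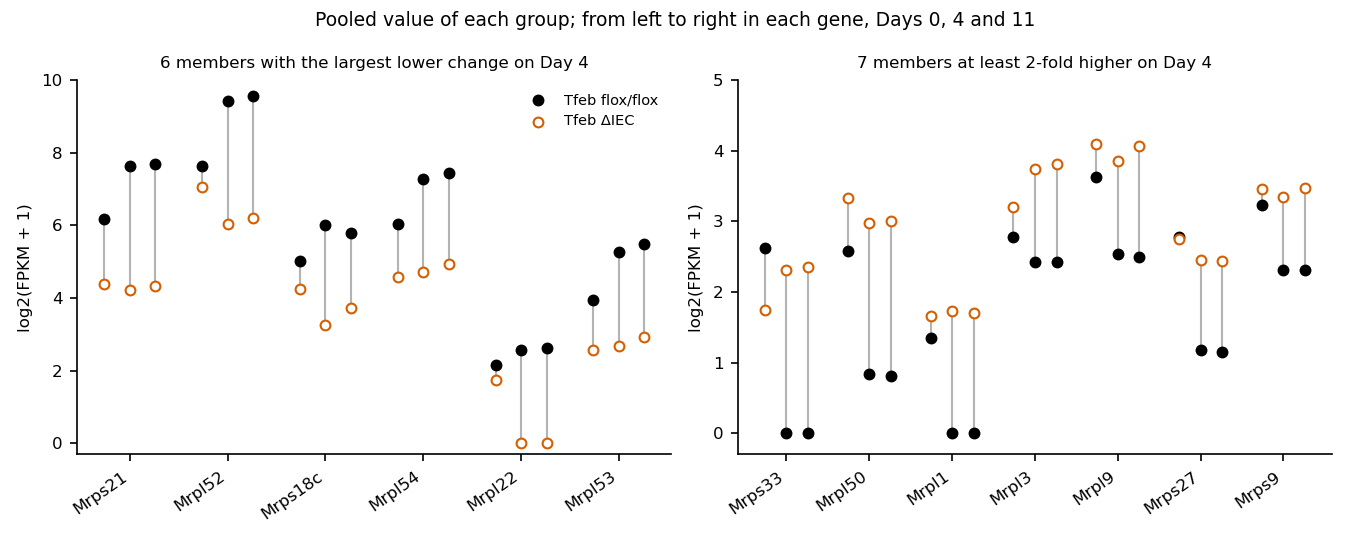
Pooled FPKM, as log2(FPKM + 1), of the 6 members with the largest lower change (left) and the 7 members at least 2-fold higher (right) on Day 4, on Days 0, 4 and 11 from left to right within each gene. Filled points are Tfeb flox/flox and open points Tfeb ΔIEC, and a line joins the genotypes of a day. In the values as deposited, the controls on the left move up after Day 0 while Tfeb ΔIEC does so less or falls, and on the right the controls move down. Both sets were chosen by their Day 4 difference, which favours such moves.

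Some members went different ways on different days. Mrps10 had 1.60 FPKM in the controls and 6.02 in Tfeb ΔIEC on Day 0, and 6.79 and 1.21 on Day 4. Its log2 fold changes were 1.43, -1.82 and -1.88 on Days 0, 4 and 11, the only change from 2-fold higher to 2-fold lower among the members. The other members past 2-fold higher on Day 0 were Mrpl48 (listed at 0 in Tfeb flox/flox and 1.88 FPKM in Tfeb ΔIEC), a protein of the central protuberance, and Mrpl47 (2.01 and 6.69 FPKM). The processed pseudogene Mrpl48-ps had 7.37 and 0.949 FPKM on Day 0, and joined to its copies Mrpl48 was at -0.13 in place of 1.53, no longer past 2-fold. Mrpl47 was under 1 FPKM in both genotypes on Days 4 and 11, and Mrpl48 had 2.15 and 1.31 FPKM on Day 4. These members all stayed below 7 FPKM, and without values per animal their spread is unknown.

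The subunits had closely similar values. On Day 4 the median log2 fold change was -1.03 over 46 Mrpl genes and -0.98 over 28 Mrps genes, and the middle 50% of the genes overlapped almost completely, from -2.08 to -0.38 in the large and from -1.92 to -0.26 in the small subunit. At least 2-fold lower were 24 of 46 and 14 of 28 (52.2% and 50%), where 26.1% of all genes were. On Day 0 the medians were -0.44 and -0.58, with 7 of 47 and 7 of 29 lower (14.9% and 24.1%), where 16.1% of all genes were. On Day 11 the medians were -0.97 and -0.95. The sign of the difference was not stable: at 10 FPKM or more, large minus small went from 0.14 to -0.0502 on Day 0 and from -0.0515 to 0.206 on Day 4. With Mrps30 and Mrps18a counted in the large subunit, where structures place them, and Mrps36 left out, the Day 4 medians were -0.98 and -1.06. Mrps30 itself had 7.76 and 6.22 FPKM on Day 4, a log2 fold change of -0.28.

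Members with low numbers (up to 36 in Mrpl and up to 21 in Mrps) and those with higher numbers also had similar medians. The split is one of naming and not of exact origin, since Mrps24 and Mrpl47, for instance, have bacterial counterparts. The Day 4 medians of low and higher numbers were -1.01 over 43 genes and -1.02 over 31 genes. At least 2-fold lower were 22 and 16 genes (51.2% and 51.6%), where 26.1% of all genes were. Within the large subunit the middle 50% ran from -2.27 to -0.17 over the 19 genes used with higher numbers, and from -1.63 to -0.56 over the 27 with low numbers, so the former were more spread out. The genes with higher numbers hold both ends of the large subunit, Mrpl52 at -3.38 and Mrpl50 at 2.13.

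The members also differed by length. Lengths are medians over the annotated transcripts of a gene in GENCODE M21. The members were split by transcript length into 3 groups of nearly equal number. On Day 4 the short group (up to 938.3 nt) had a median of -2.08, with 19 of 24 members at least 2-fold lower, the middle group -0.87, with 11 of 25, and the long group (above 1602 nt) -0.68, with 8 of 25 lower and 5 higher. All protein-coding genes in these ranges had medians of -1.61, -0.30 and 0.55. Of them, 68.4%, 26.7% and 11.6% were at least 2-fold lower, and 33.5% of the long ones higher. The members' shares at least 2-fold lower were 79.2%, 44% and 32%, above those of all genes by least in the short group, and 20% of the long members were higher. On Day 0 the groups of members were at -0.72, -0.45 and -0.12. Among members at 10 FPKM or more the difference of short minus long went from -1.40 to -0.64 on Day 4, and from -0.60 to 0.000635 on Day 0.

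Across the 74 members used on Day 4, the Spearman correlation of the log2 fold change was 0.42 with transcript length and 0.50 with coding length, and -0.25 with GC content. With the longest annotated coding sequence in place of the median it was 0.58. With the level in Tfeb flox/flox on Day 0 it was -0.55, so members with a higher level there had lower values on Day 4. The correlation with transcript length was 0.58 in the large subunit and 0.11 in the small one, and that with coding length 0.56 and 0.43. On Day 0 the correlations with transcript and coding length were 0.43 and 0.48 over 76 members. These are descriptions across genes that were measured in the same pooled libraries. All protein-coding genes showed a trend in the same direction, with 0.34 for transcript length and 0.32 for coding length over 7504 genes on Day 4.

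Split in the same way by coding length, the members with the shortest coding sequences (up to 440 nt) had a median of -2.10 on Day 4 over 24 genes, with 18 at least 2-fold lower and 1, Mrps33, at least 2-fold higher. In the middle group the median was -1.10 over 25 genes, with 14 lower. In the group above 664 nt it was -0.28 over 25 genes, with 6 lower and 5 higher. Protein-coding genes of the same ranges of coding length had medians of -1.36, -0.46 and 0.26, and the members' medians were lower than these in each range. Of all genes in these ranges, 59.5%, 34.6% and 14.2% were at least 2-fold lower, where 75%, 56% and 24% of the members were, and 27.1% of the long ones were higher, where 20% of the members were. On Day 0 the groups were at -0.76, -0.59 and -0.12, and all genes of like length at -0.68, -0.20 and 0.10. In the plot of differences against length, the members follow the slope of all genes and lie mostly below it on Days 4 and 11.

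**Figure D3:**
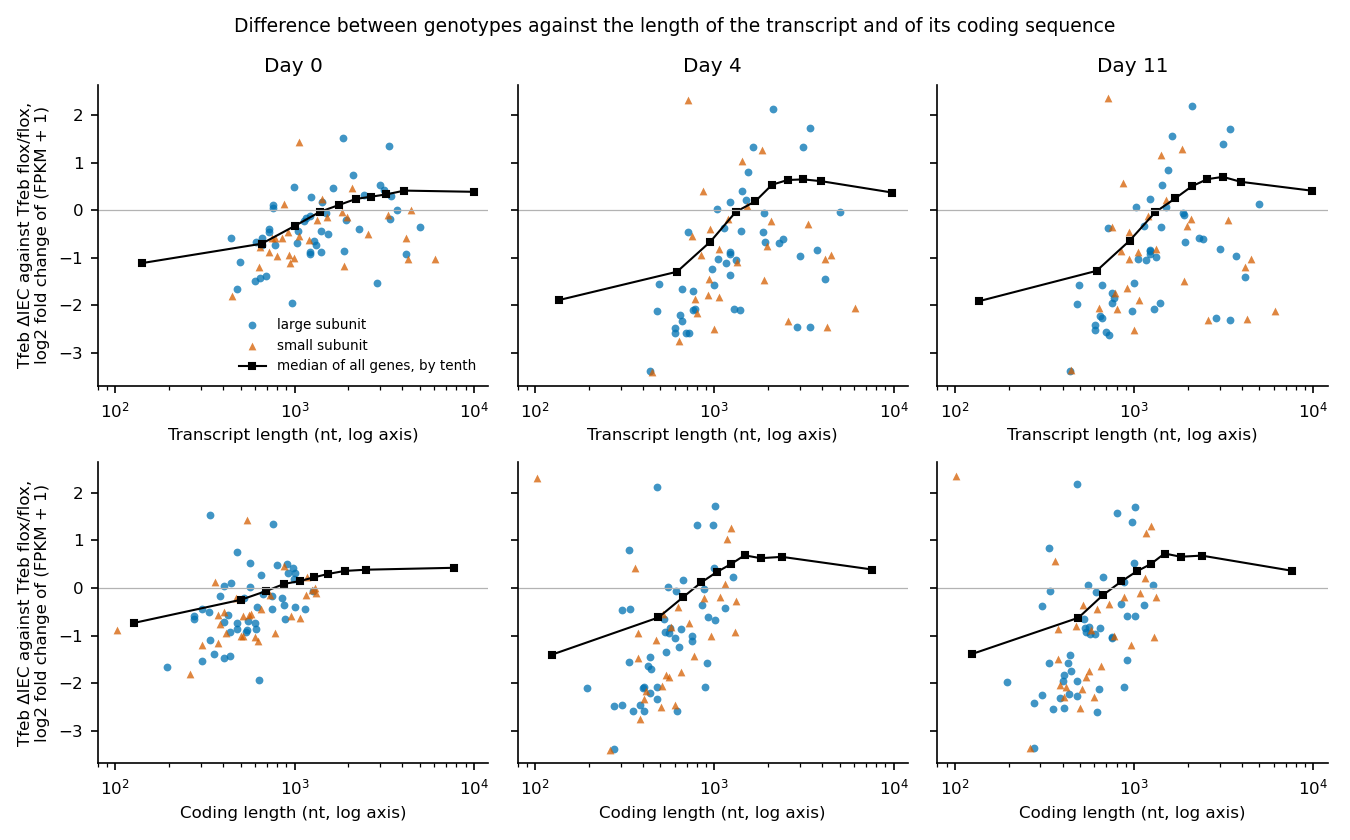
Log2 fold change of FPKM + 1, Tfeb ΔIEC against Tfeb flox/flox, against transcript length (upper row) and coding length (lower row) on log axes, for members with at least 1 FPKM on Days 0, 4 and 11. Circles are the large and triangles the small subunit, and squares joined by a line are medians of all genes in 10 classes of nearly equal number by length. On Day 4 the 17 members in the class with the shortest coding sequences had a median of -2.09, where all genes of that class had -1.40.

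Each member was also set against the genes of its own class by length. After the median of all genes of the same class by transcript length had been subtracted, the members' median was -0.20, -0.86 and -0.79 on Days 0, 4 and 11. With classes by coding length it was -0.30, -0.73 and -0.62, and 57 of 74 members were below 0 on Day 4.

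Coding length and transcript length fall in different groups in some members. These lengths are medians over annotated transcripts, and the transcript expressed here is unknown, so they are not separated by these few genes. A short coding sequence on a long annotated transcript is found in 6, which are Mrpl17, Mrpl48, Mrpl51, Mrpl57, Mrps14 and Mrps16. Their Day 4 median was -1.90, and 5 of 6 were at least 2-fold lower, where 59.5% of all protein-coding genes with short coding sequences were. Among the 17 members used with both lengths short the median was -2.11, and among the 12 with both lengths long it was -0.25. The 3 shortest transcripts belonged to Mrpl52 (440.5 nt), Mrps21 (446.5 nt) and Mrpl33 (478 nt), with log2 fold changes of -3.38, -3.40 and -2.11 on Day 4. The 3 longest belonged to Mrps25 (6073 nt), Mrpl19 (5000 nt) and Mrps5 (4481 nt), at -2.05, -0.03 and -0.93. Of these, Mrps25 has a coding sequence of 513 nt and shares 68.2% of its 50-base sequences with Nr2c2, which overlaps it on the opposite strand.

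Some members listed at 0 have near-identical copies, which need to be set beside them. For these, absence of the mRNA and the assignment of its reads to a copy cannot be told apart. Mrpl23, a protein at the exit of the peptide tunnel, was listed at 0 in all 6 groups, and Mrps36, now assigned to the oxoglutarate dehydrogenase complex, had 1.28 FPKM in Tfeb flox/flox on Day 0 and was listed at 0 elsewhere. Both have processed pseudogenes, that is, single-exon copies of the spliced mRNA inserted elsewhere in the genome, and these carried values in the tables. The pseudogenes named here were chosen after their values were seen. Mrpl23-ps1 on chromosome 2 (74591330 to 74591909, minus strand, mm10) holds the whole 438-nt coding sequence of Mrpl23, which lies in 5 coding exons on chromosome 7, without a single difference. Its FPKM was 35.4, 84.8 and 81.7 in Tfeb flox/flox on Days 0, 4 and 11, and 9.36, 9.39 and 8.90 in Tfeb ΔIEC. The first 90 bases of the coding sequence, which cannot separate gene and copy, are shown in lower case:
Mrpl23 and Mrpl23-ps1: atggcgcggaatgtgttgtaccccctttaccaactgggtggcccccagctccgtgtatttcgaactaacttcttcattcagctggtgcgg

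Mrps33, a small-subunit protein without a bacterial counterpart and the member with the largest higher change on Day 4, has a similar copy. Mrps33 lies on chromosome 6 (39801804 to 39810988, minus strand) and had 5.14, 0 and 0 FPKM in Tfeb flox/flox on Days 0, 4 and 11, and 2.35, 3.95 and 4.11 in Tfeb ΔIEC. Gm5776 on chromosome 7 (54412158 to 54412478, minus strand) differs from its 318-nt coding sequence at 1 position. It had 31.2, 34.0 and 33.7 FPKM in Tfeb flox/flox and 17.1, 10.2 and 10.4 in Tfeb ΔIEC. Gene and copy thus went opposite ways on Day 4, with 2.31 and -1.64 on the log2(FPKM + 1) scale. When the copy's value, weighted by length, was joined to that of the gene, the result was -0.77 on Day 4, so the direction of Mrps33 depends on how reads of both were divided. The stretch of 90 bases around the difference, which is in capitals, is shown for both:
Mrps33: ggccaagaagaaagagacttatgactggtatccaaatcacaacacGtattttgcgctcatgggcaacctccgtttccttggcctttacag
Gm5776: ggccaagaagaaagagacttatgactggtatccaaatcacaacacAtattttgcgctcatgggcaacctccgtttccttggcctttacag

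The copies of Mrps36 showed the same for a member at 0. Mrps36-ps1 on chromosome 17 (53866715 to 53867020) had 20.7, 5.45 and 5.45 FPKM in Tfeb flox/flox and was listed at 0 in Tfeb ΔIEC on all days. Mrps36-ps2 on chromosome 7 (105690259 to 105690567) had 4.90, 21.9 and 23.2 FPKM in the controls, and 5.26, 0 and 0 in Tfeb ΔIEC. Of the 306 coding bases, 304 and 303 are identical. Joined to all its copies, Mrps36 had -3.83 on Day 4. The stretch with most differences, in capitals, is shown for the 3 loci:
Mrps36: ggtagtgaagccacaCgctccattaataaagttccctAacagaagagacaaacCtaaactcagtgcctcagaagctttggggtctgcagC
Mrps36-ps1: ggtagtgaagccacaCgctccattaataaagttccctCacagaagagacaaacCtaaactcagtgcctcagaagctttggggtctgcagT
Mrps36-ps2: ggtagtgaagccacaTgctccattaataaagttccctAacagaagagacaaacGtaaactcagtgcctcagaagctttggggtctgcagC

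Mrps21, at the top of the lower members, has a more distant copy, Gm6181 on chromosome 7, which is 97.3% identical over 261 nt. Gm6181 had 16.3, 64.6 and 63.1 FPKM in Tfeb flox/flox and 16.6, 13.3 and 13.1 in Tfeb ΔIEC. Joined to its copy, Mrps21 had -3.15 on Day 4 in place of -3.40, so its call did not rest on this division. The stretch with the most differences, again in capitals, reads:
Mrps21: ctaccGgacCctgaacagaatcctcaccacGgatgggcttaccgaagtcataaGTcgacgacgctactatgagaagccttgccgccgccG
Gm6181: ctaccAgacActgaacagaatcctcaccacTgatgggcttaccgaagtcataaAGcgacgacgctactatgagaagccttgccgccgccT

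**Figure D4:**
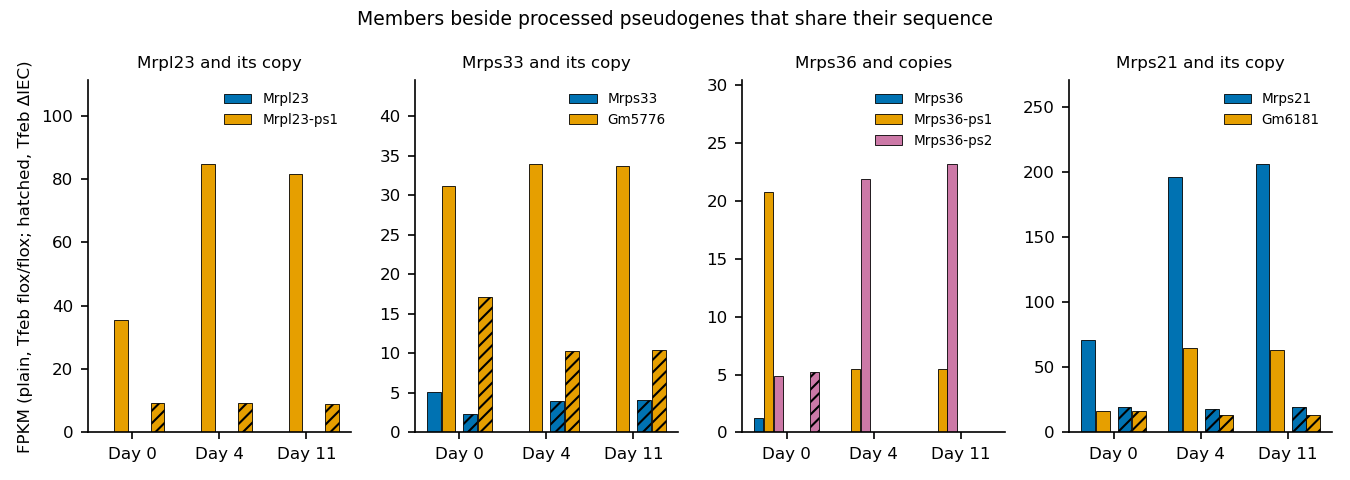
FPKM of Mrpl23, Mrps33, Mrps36 and Mrps21 beside the processed pseudogenes that share their sequence, on Days 0, 4 and 11. Plain bars are Tfeb flox/flox and hatched bars Tfeb ΔIEC, each the pooled value of 2 animals, and each panel has its own axis starting at 0. Mrpl23 and, after Day 0, Mrps36 have no bar, while Mrpl23-ps1 reaches 84.8 FPKM.

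Among the genes of the tables, 27 pseudogenes shared at least 5% of their 50-base sequences with 1 member and no other, for 19 members, and 19 of the pseudogenes had at least 1 FPKM in some group. On Day 4, 17 of them had at least 1 FPKM in either genotype. Of these, 12 were at least 2-fold lower in Tfeb ΔIEC, with a median of -1.64, and 3 higher. Of all genes, 26.1% were lower and 25.6% higher. Most of the 17 pseudogenes are as short as the short group by transcript length. All protein-coding genes in the range of that group had a median of -1.61, with 68.4% lower and 5.45% higher. The part of length in the count of the pseudogenes was not tested. Of the 77 members, 24 had no 50-base sequence in another gene. Members with at least 95% unique sequence had a Day 4 median of -1.01 over 43 genes and the others -1.05 over 31 genes. On Day 0 these medians were -0.45 over 43 and -0.58 over 33 genes. The gene body of 41 members overlaps that of another gene in the annotation.

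The regulatory sequence in front of the members was examined for a few short motifs in RefSeq promoter windows, which run from 250 bases before to 50 after a transcript start (GRCm38.p6, the assembly of mm10). Of the 77 members, 68 were matched by symbol, among 27025 genes with a window. Both strands were searched for exact matches, which are a description and not binding sites. The letters TCACGTG, the core recognised by TFEB and its relatives, were found in 4 of 68 members (5.88%) and in 4.29% of all genes, and in 7.32% of the genes with at least 1 FPKM on Day 4. The 4 members were Mrps18c, Mrpl2, Mrpl36 and Mrpl37, whose log2 fold changes on Day 4 were -2.74, -1.57, -0.46 and 0.23. Their median was -1.01, the same as the -1.01 of the 61 members without the letters. The E-box CACGTG, which every TCACGTG contains, was found in 5 of 68 members (7.35%), in 8.09% of all genes and in 12.3% of those with at least 1 FPKM on Day 4. Members with CACGTG had a Day 4 median of -1.55 over 5 genes, and those without it -0.98 over 60 genes. Their coding sequences also differ, with medians of 384 and 540 nt.

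The motif of ETS-family factors such as GABP, a known regulator of nuclear genes for mitochondrial proteins, was more frequent. CCGGAAG was found in 25 of 68 members (36.8%), in 9.93% of all genes and in 23.1% of the genes with at least 1 FPKM on Day 4. Members with it had a median of -2.09 on Day 4 over 25 genes, with 18 at least 2-fold lower, and those without it -0.83 over 40 genes, with 15 lower. Of all genes, 26.1% were at least 2-fold lower. Members with the motif also have shorter coding sequences, with a median of 438 nt against 573 nt. Within the group with the shortest coding sequences the medians were -2.45 (13 genes) and -1.50 (10 genes), and within the middle group -1.35 (9 genes) and -0.91 (12 genes). In the group with the longest they were 1.26 over only 3 genes and -0.32 over 18. Over all genes with a window, those with the motif had a Day 4 median of 0.22 and those without it 0.18. The motifs GCATGCG (the core of NRF1 sites) and TATAAA were found in 8 and 5 of 68 members, or 11.8% and 7.35%. They were in 4.01% and 15.7% of all genes, and in 7.94% and 9.44% of those with at least 1 FPKM on Day 4.

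The letters are shown in capitals in 3 windows, that of the member with the lowest Day 4 value among those with CCGGAAG before the start, and those of both members in which TCACGTG reads on both strands. They are given 5′ to 3′ on the plus strand, cut where the annotated exon of the gene begins and at an exon of a neighbour on the opposite strand, of which 20 bases were kept. Mrpl52 (chr14:54426659-54426908) has CCGGAAG on the minus strand 47 bases before its RefSeq start. In Mrps18c (chr5:100798579-100798626), which shares this short stretch with the divergent gene Helq, both motifs lie side by side. In Mrpl2 (chr17:46646003-46646220), opposite Klc4, the TFEB-type core lies 132 bases before the start:
Mrpl52: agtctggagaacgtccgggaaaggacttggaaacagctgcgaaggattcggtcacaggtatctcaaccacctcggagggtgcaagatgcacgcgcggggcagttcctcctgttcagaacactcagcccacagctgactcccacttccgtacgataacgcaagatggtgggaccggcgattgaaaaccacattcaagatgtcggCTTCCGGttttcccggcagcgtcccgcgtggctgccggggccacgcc
Mrps18c: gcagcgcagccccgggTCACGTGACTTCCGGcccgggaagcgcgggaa
Mrpl2: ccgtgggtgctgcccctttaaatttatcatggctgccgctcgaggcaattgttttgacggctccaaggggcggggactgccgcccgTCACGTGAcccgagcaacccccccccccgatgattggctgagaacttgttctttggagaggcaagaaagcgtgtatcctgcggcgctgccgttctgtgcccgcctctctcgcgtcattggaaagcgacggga

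Of the mitoribosomal proteins that go by other names, the 6 genes used were Chchd1, Gadd45gip1, Aurkaip1, Ict1, Dap3 and Ptcd3. Chchd1, with a coding sequence of 282 nt, went from 46.8 FPKM in Tfeb flox/flox to 3.98 in Tfeb ΔIEC on Day 4, a log2 fold change of -3.26. Gadd45gip1, Aurkaip1 and Ict1, a peptidyl-tRNA hydrolase built into the large subunit, were at -2.48, -1.91 and -1.69. Dap3, a GTP-binding protein of the small subunit, and Ptcd3, a pentatricopeptide repeat protein, have longer coding sequences of 1173 nt and 2055 nt and were at 0.35 and 0.57. The median of the 6 was -1.80 on Day 4, with 4 at least 2-fold lower and 0 higher, where 26.1% and 25.6% of all genes were.

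The factors that act on the mitoribosome had medians near 0. Of 12 mitochondrial translation factors, 9 had at least 1 FPKM on Day 4, with a median of -0.13. Of these 2 were at least 2-fold lower and 2 higher, where 26.1% and 25.6% of all genes were. Gfm1, the elongation factor G of mitochondria, had 1.17 FPKM in the controls and 10.8 in Tfeb ΔIEC, a log2 fold change of 2.44, and Gfm2, which acts in ribosome recycling, had 0.222 and 3.90 FPKM (2.00). The initiation factor Mtif3 and the recycling factor Mrrf were at -1.47 and -1.12. Of 25 assembly genes 18 were used, with a median of -0.19, 6 lower (33.3%) and 2 higher (11.1%). The largest changes there were in the RNA helicase Dhx30 (-2.02) and in Mpv17l2 (-1.62), and, in the other direction, in the GTPase Eral1 (1.50) and in Mterf3 (1.24). On Day 0 the medians of these lists were 0.13 and -0.02. Both lists have longer coding sequences than the members, with medians of 1244 and 1131 nt against 552 nt.

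Genes of mitochondrial RNA synthesis and processing had a median of 0.72 on Day 4 over 11 genes. Of these 2 were at least 2-fold lower and 4 higher, where 26.1% and 25.6% of all genes were. Slirp and Lrpprc, whose proteins form 1 complex that protects mitochondrial mRNAs, went opposite ways: Slirp, with 316.5 nt of coding sequence, went from 374 to 39.7 FPKM (-3.20), and Lrpprc, with 4176 nt, from 0.111 to 3.72 FPKM (2.09). Pnpt1, an RNA-degrading enzyme, was at 2.48 and Trmt10c, a subunit of mitochondrial RNase P, at 1.20. Of 17 mitochondrial aminoacyl-tRNA synthetases 15 were used, with a median of 0.42. Past 2-fold were 4 lower (26.7%) and 5 higher (33.3%), where 26.1% and 25.6% of all genes were. Lars2, at 3243 FPKM in the controls and 350.2 in Tfeb ΔIEC, was the lowest at -3.21, followed by Tars2 at -1.51, and Fars2 was the highest at 2.17. Lars2 alone held 3243 of the 3283 FPKM of all synthetases in the Day 4 controls. Whether all its reads came from Lars2 mRNA was not tested. The RNA genes and the synthetases have longer coding sequences than the members, with medians of 1299 and 1656 nt against 552 nt. The part of length in their medians was not tested.

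The cytosolic ribosome and respiratory complex I, compared as other complexes of many small proteins, were lower by more. On Day 4, 85 cytosolic ribosomal proteins had a median of -2.21, with 71 at least 2-fold lower and 0 higher, and 37 complex I genes had a median of -2.44, with 29 lower and 2 higher. Of all genes, 26.1% were lower and 25.6% higher. On Day 0 these medians were -0.9995 and -1.25. Both groups have shorter coding sequences than the members, with medians of 438 and 421.5 nt against 546 nt in the large and 558 nt in the small subunit, and higher levels, with a median of 561 and 374 FPKM in Tfeb flox/flox on Day 4 against 22.6 and 25.5. Whether length or level accounts for the gap was not tested.

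**Figure D5:**
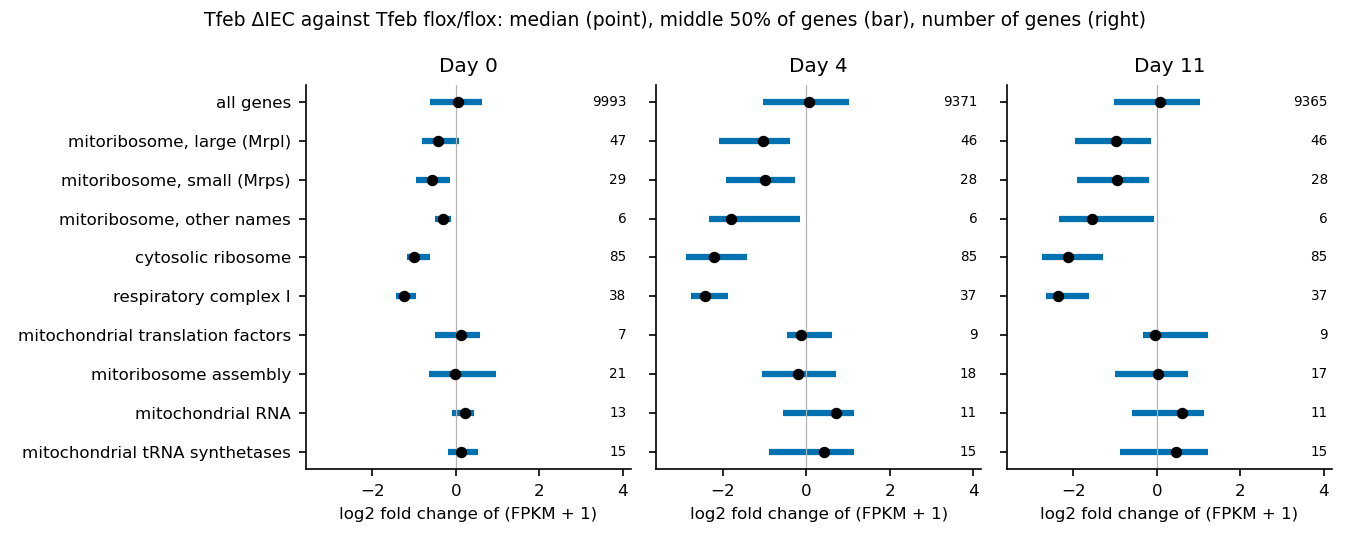
Median log2 fold change of FPKM + 1 (points) and middle 50% of the genes (bars), Tfeb ΔIEC against Tfeb flox/flox, for both subunits and related groups of genes on Days 0, 4 and 11, with the number of genes used at the right of each panel. Bars show the spread over genes and not over animals. On Day 4 the medians run from -2.44 (complex I) to 0.72 (mitochondrial RNA).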

How the data were processed

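Expression was measured by RNA-seq of colonic epithelial cells in 6 groups of 2 animals. The authors prepared full-length cDNA by a variation of SmartSeq2, sequenced paired-end reads on a MiSeq, and mapped them to mm10 with Bowtie and TopHat2 (2.0.14 in the submitters' processing notes). Cuffdiff 2.1.1 was then run by the authors on both genotypes of a day. The 3 deposited tables hold 1 FPKM value per gene and genotype, pooled by the authors over both animals and scaled within a day. Their fold change, test statistic, p-value, q-value and significance columns hold the authors' own comparison and were not used. The annotation release is not given in the sources used here.

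Tables were joined by Ensembl identifier. Log2 fold changes used a pseudocount of 1 FPKM and genes with at least 1 FPKM in either genotype of a day. Lengths, GC content, overlaps and shared 50-base sequences come from GENCODE M21 (47218 of 47632 genes matched), and pseudogenes counted as copies where at least 5% of their 50-base sequences were shared with 1 member. Coding sequences were aligned with Biopython 1.88. Promoter windows are from RefSeq, and those of 9 members were not used here.

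Named members are those with the 6 largest lower and higher changes on Day 4 and the 3 on Days 0 and 11, all past 2-fold higher on Day 4 or 11, the 5 highest by mean FPKM, those at 0 in a group and at 1 FPKM or more in another, the 3 shortest and 3 longest transcripts, the Mrps18 paralogs, Mrps30, Mrps36, and up to 4 of each related list, of which 1 gene is not reported here. Dap3 and Ptcd3 are given beyond this rule, chosen after their values were seen. Members and lists were chosen with earlier results of these data known. Tools were Python 3.11.15 with matplotlib 3.10.9, scipy 1.17.1, pandas 2.3.3 and numpy 2.4.6. Alternatives covered the pseudocount, the filter, the scaling, the fold, lengths, copies and the scaling between days, the last 3 in part or wholly added after seeing the data, and the summaries were tested on simulated data.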

Additional observations from a re-analysis of the deposited data

Results flagged for a closer look

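Mrps10, a small-subunit protein with a bacterial counterpart, differed between days in the direction of its genotype difference. Its log2 fold change, Tfeb ΔIEC against Tfeb flox/flox, was 1.43 before treatment, but -1.82 and -1.88 on Days 4 and 11, at between 0.655 and 6.79 FPKM. The difference between the days was not tested, because no value per animal was used here.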

How the results depend on the processing

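No paired analysis was possible because each genotype and day has 1 value pooled over its animals, and no test was run. For the same reason no replicate could be left out in turn. Of 164 recomputed values, 90 planned and 23 added after seeing the data stayed close to those reported, 36 planned and 6 added ones moved (4 of them counts between Day 0 and Day 4 under one sum for all groups) and 9 changed sign, 8 of them large minus small subunit. A count stayed close within 1.5 times, a median inside its 95% interval over genes, and a difference where both of its medians did, so a difference can count as moved at nearly the same value. The median member stayed below 0 under all alternatives tried. Except where stated, the cause of each move was not tested. With a pseudocount of 5 FPKM, members past 2-fold on Day 0 were 6 lower and 0 higher, those higher on Days 4 and 11 were 1 and 2, and the difference of short minus long transcripts was -0.44, -1.17 and -1.16 on Days 0, 4 and 11. At 10 FPKM or more the medians of the members were -0.72, -1.61 and -1.57, those higher were 0, 2 and 3, short minus long was 0.000635 (reversed), -0.64 and -0.48, and large minus small subunit was -0.0502 on Day 0 and 0.206 on Day 4 (both reversed). Large minus small also reversed with a pseudocount of 5 FPKM (0.0498 and 0.0651 on Days 4 and 11), with 0.1 FPKM (0.0144 on Day 11) and with subunits by structure (0.073 and 0.0746). Divided by the group's sum, Days 4 and 11 had medians of -0.21 and -0.19, 23 members lower on each, short minus long of -1.28 and -1.11, and large minus small of -0.0483 and 0.00718 (reversed on Day 11). At 1.5-fold, 32 members were lower on Day 0. At 4-fold, 0, 21 and 18 were lower and 0, 2 and 2 higher. Without the 39 of 77 members whose locus overlaps another gene, an alternative that has fewer genes by construction, the medians were -0.45, -1.27 and -1.12 and 6 of 37, 22 of 36 and 22 of 36 were lower and 1, 3 and 3 higher. Set against genes of like transcript length the Day 0 median was -0.20, and against genes of like coding length, an added alternative, it was -0.73 and -0.62 on Days 4 and 11. Read depth is unknown, so counting error cannot be given.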
